A study of Mus musculus with 4 samples.

Results

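The 93 cytosolic ribosomal protein genes of the mouse were followed through the nuclei and the free RNA of adult testis, in single-nucleus RNA-seq of 2 wild-type (WT) and 2 Dhx37-/- libraries. They were taken by name alone from the 55357 genes listed: symbols starting with Rpl or Rps followed by a digit, symbols starting with Rplp, and *Rpsa*, leaving out rows marked -ps (pseudogenes), the Rps6k kinases and *Rps19bp1*. By symbol, 55 were counted to the large subunit (Rpl and Rplp) and 38 to the small subunit (Rps and *Rpsa*). A symbol alone does not show that a gene encodes a protein of the ribosome. Of the 93, 89 lie on autosomes, and 4 lie on the X chromosome (*Rpl10*, *Rpl36a*, *Rpl39* and *Rps4x*). All animals were 8-week-old males, and each library was a separate biological replicate per its label. Per the study's methods, the Dhx37-/- males carried 2 floxed *Dhx37* alleles and the Amh-Cre transgene, meant to delete *Dhx37* in Sertoli cells, on a C57BL/6 base. Deletion by cell class was not tested here, and whether the WT males carried a floxed allele or Cre was not given in the sources used here. A UMI (unique molecular identifier) counts 1 captured RNA molecule, and a level below is given as UMIs scaled to a total of 1000000 UMIs within the same class and library (CPM).

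Ribosomal proteins assemble with ribosomal RNA in the nucleolus into the small and the large subunit, and their mRNAs are among the most abundant of the cytoplasm. Many of these mRNAs start within a run of pyrimidines, the 5′ terminal oligopyrimidine motif, through which their translation is set together. *Dhx37* encodes an RNA helicase that acts in maturation of the small subunit. In male meiosis the X chromosome is silenced, and several X-linked ribosomal protein genes have autosomal retrocopies known for expression in the testis, such as *Rpl10l* for *Rpl10*, *Rpl39l* for *Rpl39* and *Rps4l* for *Rps4x*. A nucleus holds mainly new and unspliced RNA, and RNA freed from broken cells enters every droplet, so both sources were measured.

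The stretch around the transcription start is shown for 3 members with a long pyrimidine run over the start (*Rps6*, *Rps18*, *Rps27*) and for 2 of the X-linked members beside their autosomal paralogs, on which the results turn. Each window runs from 20 bases before to 10 bases after the RefSeq start, 5′ to 3′ on the gene's strand (GRCm38.p6), and capitals mark every C followed by at least 4 further C or T. The windows lie at chr4:86857358-86857387 (minus strand, *Rps6*), chr3:90213639-90213668 (minus, *Rps27*), chr17:33955656-33955685 (minus, *Rps18*), chrX:37085213-37085242 (minus, *Rpl39*), chr16:10170208-10170237 (plus, *Rpl39l*), chrX:74270796-74270825 (plus, *Rpl10*) and chr12:66284392-66284421 (minus, *Rpl10l*).
Rps6: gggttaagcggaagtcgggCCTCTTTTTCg
Rps27: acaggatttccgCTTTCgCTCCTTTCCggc
Rps18: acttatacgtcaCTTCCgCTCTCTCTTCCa
Rpl39: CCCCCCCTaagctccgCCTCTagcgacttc
Rpl39l: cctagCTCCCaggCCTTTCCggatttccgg
Rpl10: ctatggttgttacagtggaagataggccgc
Rpl10l: agaaatttggCCTCCattttgcggctggcg

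The run spanned the start itself in *Rps6*, *Rps18*, *Rps27* and *Rpl39*, and did not in *Rpl39l* and *Rpl10l*. In the *Rpl10* window these letters were not found. RefSeq gave 80 start windows for 68 of the 93 members, and 48 of them (60%) held such a run, against 12351 of 32851 windows of all genes (37.6%) and 46.7% of the windows of mitochondrial ribosomal protein genes. On the opposite strand the same search found a run in 25% of the members' windows and in 40.0% of all windows. A run over the start itself occurred in 28.75% of the members' windows, 8.02% of all windows and 4% of the mitochondrial ones. These matches describe letters in a fixed window and were not tested as regulatory sites.

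The libraries held between 51797891 and 75611263 UMIs, and 8641 to 12700 nuclei per library passed the filters. Between 26.9% and 38.1% of these nuclei could be assigned to 1 of 12 cell classes by marker genes that include no ribosomal protein gene. Any pair of libraries shared 25 to 44 barcodes, of which 1 to 4 were assigned nuclei in both. A class name stands for its marker gate. The gate for spermatogonia was the least separate: its nuclei (6 to 74 per library) held 1718 to 1926 CPM of spermatogonial markers and 1124 to 1890 CPM of early meiotic markers, with the early meiotic list the higher in WT replicate 1. The peritubular myoid nuclei carried 3682 to 5675 CPM of fibroblast markers beside 4781 to 6528 CPM of their own. In Sertoli nuclei, *Dhx37* stood at 7.42 and 21.4 CPM in WT (4 and 3 UMIs) and at 10.4 and 6.59 CPM in Dhx37-/- (12 and 14 UMIs). The 2 genotypes overlapped in this gene, whose 3′ tags may lie outside the deleted part, so its level does not check the labels. WT replicate 1 stood apart from the other libraries in the share of ribosomal protein UMIs over all barcodes, at 0.953%, where WT replicate 2 had 1.63% and the Dhx37-/- libraries 2.30% and 1.89%.

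Ribosomal protein genes took a smaller share of the UMIs of assigned nuclei than of free RNA, and the share differed several-fold between cell classes. In free RNA, read from the barcodes ranked 45000 to 90000 by UMIs, the 93 genes made up 1.40% and 3.24% of UMIs in WT replicates 1 and 2, and 4.30% and 3.95% in the 2 Dhx37-/- libraries. In round spermatid nuclei the libraries gave, in that order, 0.491%, 0.631%, 0.842% and 0.840%. The free RNA share was 2.86 to 5.13 times that of round spermatid nuclei, and 11 of the 12 classes lay below free RNA in every library. The exception was the T cell class, at 0.928 to 1.68 times.

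**Figure D1:**
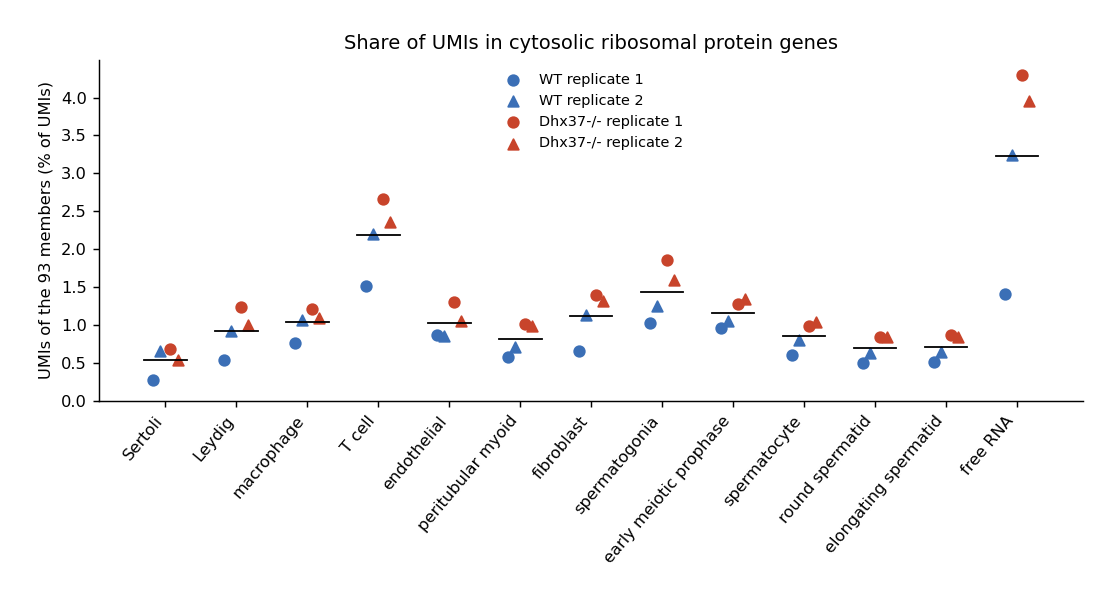
Share of UMIs in the 93 cytosolic ribosomal protein genes, in percent, for each cell class and for free RNA. Each point is 1 library (blue WT, red Dhx37-/-, circle replicate 1, triangle replicate 2) and each bar the mean of the 4. T cell nuclei are the highest class, Sertoli nuclei are low, and free RNA reaches 4.30%.

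T cell nuclei held the highest share of any class in 4 of 4 libraries, at 1.51%, 2.20%, 2.66% and 2.35% in the same library order, over 5 to 39 nuclei. Sertoli nuclei held the lowest share in 3 of 4 libraries, at 0.270%, 0.657%, 0.685% and 0.535%. Spermatogonia stood at 1.03%, 1.24%, 1.85% and 1.59%, the highest of the germ cell classes in every library. The share was lower in early meiotic prophase (0.955%, 1.05%, 1.28% and 1.35%) and lower again in later spermatocytes (0.605%, 0.805%, 0.988% and 1.03%). Round and elongating spermatids did not separate from each other: elongating spermatids held 0.513%, 0.641%, 0.863% and 0.837%. Within each library the order from spermatogonia to round spermatid nuclei was the same. Macrophages (0.756% to 1.22%), fibroblasts (0.659% to 1.39%), endothelial cells (0.859% to 1.31%), peritubular myoid cells (0.573% to 1.01%) and Leydig cells (0.537% to 1.23%) overlapped one another over the 4 libraries.

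Part of these UMIs came from free RNA. Read from the spermatid transcripts *Prm1*, *Prm2*, *Tnp1* and *Tnp2* in somatic nuclei, free RNA was estimated at 8.11% to 30.03% of the UMIs of somatic classes and at 22.9% to 96.8% of their ribosomal protein UMIs. For Sertoli nuclei it was 58.1% and 88.5% of the ribosomal protein UMIs in WT replicates 1 and 2, and 59.5% and 59.9% in Dhx37-/- replicates 1 and 2. These estimates can be too high: in 21 of 28 sums of a somatic class and library the testis paralog *Rpl39l* lay below the level that the estimated free RNA would give. In Sertoli nuclei of WT replicate 2 its level allows a free RNA share of about 6.10% of UMIs, where the spermatid transcripts gave 17.96%. That is 30.05% of the ribosomal protein UMIs in place of 88.5%. This limit rests on few *Rpl39l* UMIs (64.2 CPM in a sum of 140135 UMIs), so it carries a large counting error and is not a firm maximum. With the spermatid estimate subtracted, the Sertoli share was 0.127% and 0.0919% in WT and 0.307% and 0.233% in Dhx37-/-, without overlap. With no more subtracted than *Rpl39l* allows, a limit chosen after seeing the data, it was 0.129% and 0.490% in WT and 0.307% and 0.253% in Dhx37-/-, with overlap.

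The most counted members came from both subunits. Over the 12 classes the mean level was highest for *Rps29* (367 CPM), *Rps14* (358 CPM), *Rplp1* of the acidic stalk (309 CPM), *Rps24* (296 CPM) and *Rpl41* (293 CPM). In free RNA *Rps29* (1294 CPM), *Rpl41* (1231 CPM), *Rps14* (1169 CPM) and *Rps24* (1014 CPM) led again, and the fifth was the testis paralog *Rpl39l* (1013 CPM). These 5 leading members took 16.5% of member UMIs in the classes, and the 5 of free RNA took 17.7% there. CPM is not divided by gene length, and whether intron reads were counted is not stated, so an order of levels between genes is an order of UMIs counted. Of the 93 members, 84 had at least 1000 UMIs in classes and free RNA together, 9 had fewer, and *Rps12l1* had none. Members with near-identical pseudogenes can lose reads that match both places, and their levels are uncertain to that extent.

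As shares of the members' UMIs, the X-linked genes were lowest and their autosomal paralogs highest in later spermatocytes. The 4 X-linked genes supplied 3.27% of the ribosomal protein UMIs in Leydig nuclei, 3.45% in fibroblasts and 2.73% in macrophages, but 1.02% in spermatogonia, 0.563% in early meiotic prophase and 0.235% in later spermatocytes (library range 0.0800% to 0.352%). Sertoli nuclei stood at 1.01% (library range 0.543% to 1.09%), free RNA included, the lowest of the somatic classes. Why they lay below the others was not tested. In round spermatids they supplied 0.529% and in elongating spermatids 0.594%, close to free RNA at 0.608%. The paralogs *Rpl10l*, *Rpl39l* and *Rps4l* together went from 2.03% in spermatogonia to 3.53% in early meiotic prophase and 5.83% in spermatocytes (library range 5.39% to 6.71%), and stood at 4.71% in round and 3.80% in elongating spermatids. In Leydig nuclei, free RNA included, they made up 1.51%, in Sertoli nuclei 2.67% and in free RNA 4.25%. These shares are descriptions of summed UMIs; the tests of single genes follow.

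**Figure D2:**
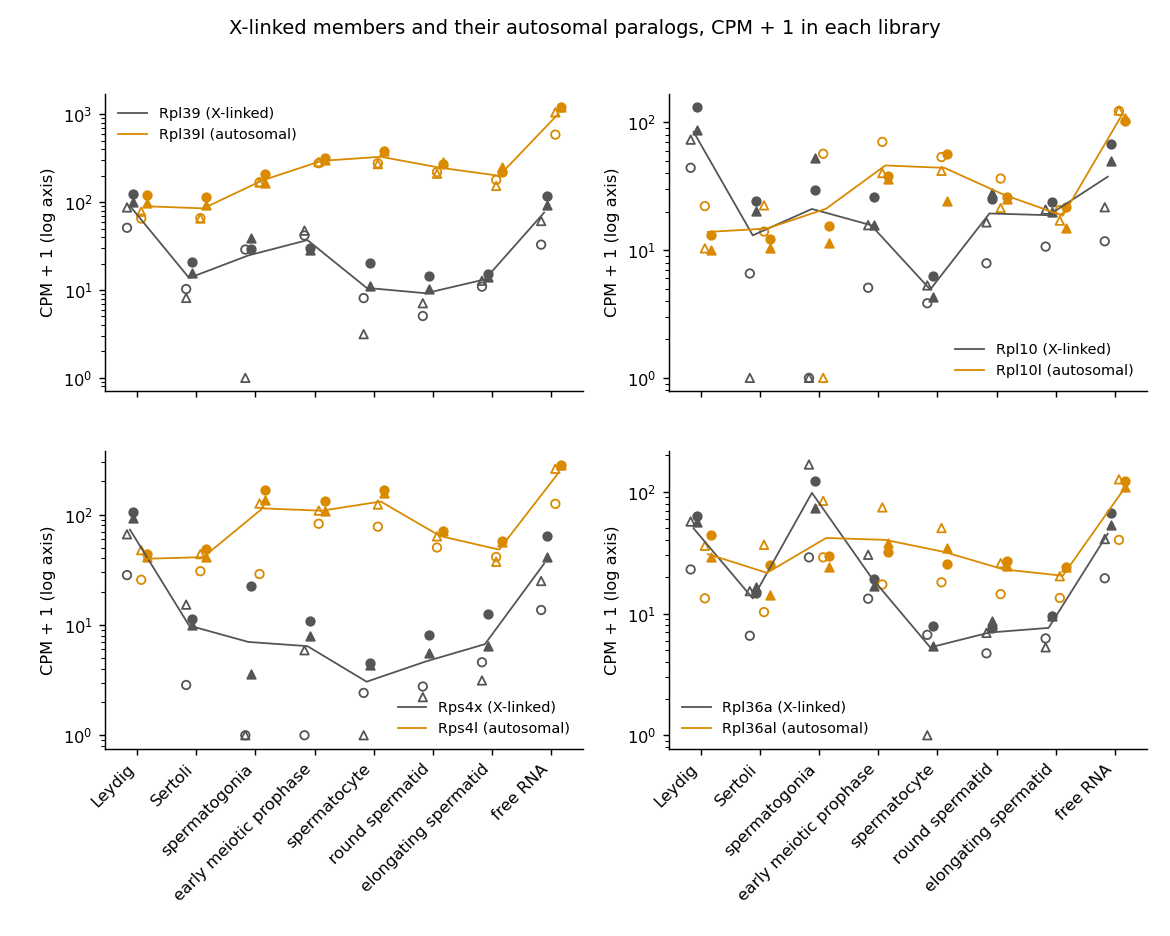
CPM plus 1 on a log axis for 4 pairs of X-linked member (grey) and autosomal paralog (orange) in 7 cell classes and free RNA; open symbols are WT and filled Dhx37-/- libraries, circles replicate 1 and triangles replicate 2, and lines join the means of the 4 libraries. In spermatocytes each autosomal gene lies above its X-linked partner in every library, and in Leydig nuclei *Rpl10* lies above *Rpl10l*.

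*Rpl39l*, a short protein at the exit tunnel and the partner of X-linked *Rpl39*, was the most abundant of the paralogs. Its level in the order WT 1, WT 2, Dhx37-/- 1, Dhx37-/- 2 was 168, 166.5, 208 and 165 CPM in spermatogonia and 277, 270, 385 and 381 CPM in spermatocytes, without overlap. In edgeR's quasi-likelihood test the log2 difference was 1.75 (adjusted p = 1.58e-08), and it was called under all 9 alternatives (0.96 to 1.80). The median of all genes tested in this fit was 0.50. *Rpl39* itself stood at 27.9, 0, 28.6 and 38.6 CPM in spermatogonia and at 7.102, 2.15, 19.1 and 9.98 CPM in spermatocytes, where its log2 difference of -0.85 did not pass (adjusted p = 0.15). *Rpl39l* made up 83.8% of the UMIs of the pair in spermatogonia, 97.1% in spermatocytes (95% exact binomial interval 95.9% to 98.1%) and 92.95% in free RNA. Such intervals cover counting error only. Read from the same spermatid transcripts, free RNA was 10.6% to 37.4% of the UMIs of spermatogonia, early meiotic prophase and spermatocytes, and round and elongating spermatids, which make these transcripts, have no such estimate. It would give 158, 199, 185 and 163 CPM of *Rpl39l* in spermatogonia, so the level there was near background, and 154, 112, 162 and 193 CPM in spermatocytes, below the level seen in 4 of 4 libraries. The shares of pairs in germ cells below include this free RNA. For *Rpl39* in spermatocytes it would give 8.33, 6.38, 15.9 and 14.7 CPM, and only Dhx37-/- replicate 1 lay above it. In Leydig nuclei *Rpl39l* made up 50.0%, at 64.3, 76.9, 119 and 96.4 CPM, while the free RNA estimated in these nuclei would alone give 109, 96.5, 131 and 127 CPM. In Sertoli nuclei it made up 86.1%, at 64.9, 64.2, 115 and 92.2 CPM, where free RNA would give 65.8, 189, 114 and 98.1 CPM. The *Rpl39l* of both somatic classes thus lay at or below background and gives no ratio of expression within them. *Rpl39* in Leydig nuclei, at 50.2, 86.3, 123 and 98.8 CPM, lay above the 5.51 to 12.8 CPM from free RNA in every library.

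*Rpl10*, a core protein that joins the large subunit late in its assembly, had the largest log2 difference from spermatocytes to round spermatids of the 87 members tested. It stood at 2.84, 4.29, 5.22 and 3.33 CPM in spermatocytes, on 10 UMIs in all and near the 2.80, 2.19, 8.98 and 7.76 CPM from free RNA, and at 6.89, 15.5, 24.3 and 26.8 CPM in round spermatids, with every round spermatid library above every spermatocyte library. The log2 difference was 2.76 (edgeR adjusted p = 1.62e-07), and it was called under all 9 alternatives (2.28 to 3.34). From spermatogonia to spermatocytes *Rpl10* fell by 2.24 on the log2 scale (adjusted p = 0.00141), called under 8 of 9 alternatives. Without Dhx37-/- replicate 2 it fell by 1.23 and was not called (adjusted p = 0.375). Its spermatogonial UMIs were all in the Dhx37-/- libraries (28.6 and 51.4 CPM), with 0 UMIs in both WT libraries over 6 and 17 nuclei. *Rpl10l* stood at 52.6, 40.8, 55.7 and 23.3 CPM in spermatocytes, above the 31.9, 13.03, 13.8 and 17.2 CPM from free RNA. It rose from spermatogonia by a log2 difference of 1.98 (edgeR adjusted p = 0.000213), called under all 9 alternatives (1.22 to 2.22). Its spermatogonial levels (55.9, 0, 14.3 and 10.3 CPM, 10 UMIs) nonetheless overlapped those of spermatocytes. The 91.6% that *Rpl10l* took of the pair in spermatocytes (interval 85.1% to 95.9%) was 56.3% in round spermatids and 75.5% in free RNA. In Leydig nuclei it was 12.1%, with 8.98 to 21.1 CPM of *Rpl10l* beside the 11.1 to 22.7 CPM that free RNA would give.

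*Rps4l*, the paralog of the small-subunit protein *Rps4x*, stood at 27.9, 125, 165 and 134 CPM in spermatogonia, 76.7, 122, 167 and 155 CPM in spermatocytes and 49.3, 62.5, 70.7 and 69.4 CPM in round spermatids. The spermatogonia and spermatocyte libraries overlapped, and the log2 difference of 0.93 (edgeR adjusted p = 0.00361) was lost under 4 of 9 alternatives. *Rps4x* was near background in spermatocytes, at 1.42, 0, 3.48 and 3.33 CPM (2.55 to 8.49 CPM from free RNA), against 27.3, 65.3, 104 and 91.2 CPM in Leydig nuclei. In spermatogonia it stood at 0, 0, 21.5 and 2.57 CPM on 4 UMIs, and only Dhx37-/- replicate 1 lay above free RNA. Its log2 difference of -0.55 from spermatogonia to spermatocytes was not called (edgeR adjusted p = 0.662). *Rps4l* made up 98.3% of the pair in spermatocytes, 95.2% in spermatogonia and 32.5% in Leydig nuclei, where free RNA would give 23.1 to 30.5 of its 24.6 to 46.6 CPM. Over the 5 germ cell classes its share stayed between 89.1% and 98.3%.

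*Rpl36a* showed the deepest fall of the 87 members tested from spermatogonia to later spermatocytes. It stood at 27.9, 166.5, 122 and 72 CPM in spermatogonia and at 5.68, 0, 6.96 and 4.44 CPM in spermatocytes, without overlap and, in spermatocytes, near the 4.24 to 8.89 CPM from free RNA. The log2 difference was -3.30 (edgeR adjusted p = 1.47e-08), and it was called under all 9 alternatives (-4.06 to -3.10). Its paralog *Rpl36al* took 25% of the pair in spermatogonia, 67.7% in early meiotic prophase and 86.8% in spermatocytes, then 78.2% in round and 73.9% in elongating spermatids. The level of *Rpl36al* itself was 27.9, 83.2, 28.6 and 23.1 CPM in spermatogonia. In spermatocytes it was 17.0, 49.4, 24.4 and 33.3 CPM, with overlap, so its larger share came with the fall of *Rpl36a*.

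Shares also shifted toward the paralog in a pair with both genes on autosomes. *Rpl22*, an RNA-binding protein of the large subunit, stood at 321, 83.3, 236 and 154 CPM in spermatogonia and at 22.7, 47.2, 52.2 and 44.4 CPM in spermatocytes (log2 difference -1.52, edgeR adjusted p = 1.77e-05). In spermatocytes free RNA would give 31.6, 27.2, 42.0 and 47.8 CPM of *Rpl22*. *Rpl22l1* stood at 41.9, 0, 129 and 82.3 CPM in spermatogonia and at 90.9, 125, 137 and 162 CPM in spermatocytes, with overlap (log2 difference 1.51, adjusted p = 2.63e-05). Both were called under all 9 alternatives (-2.31 to -1.31 for *Rpl22* and 0.75 to 1.81 for *Rpl22l1*). *Rpl22l1* made up 31.0% of the pair in spermatogonia (interval 24.2% to 38.5%), 46.2% in early meiotic prophase, 76.3% in spermatocytes (72.1% to 80.1%) and 66.4% in round spermatids, and 42.3% in Leydig nuclei. *Rpl7l1*, named after *Rpl7*, took 42.9% of its pair in spermatogonia, 33.3% in spermatocytes, 15.98% in round and 5.51% in elongating spermatids. *Rps27l* kept 13.97% to 34.7% of its pair with *Rps27* in the 12 classes and free RNA.

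**Figure D3:**
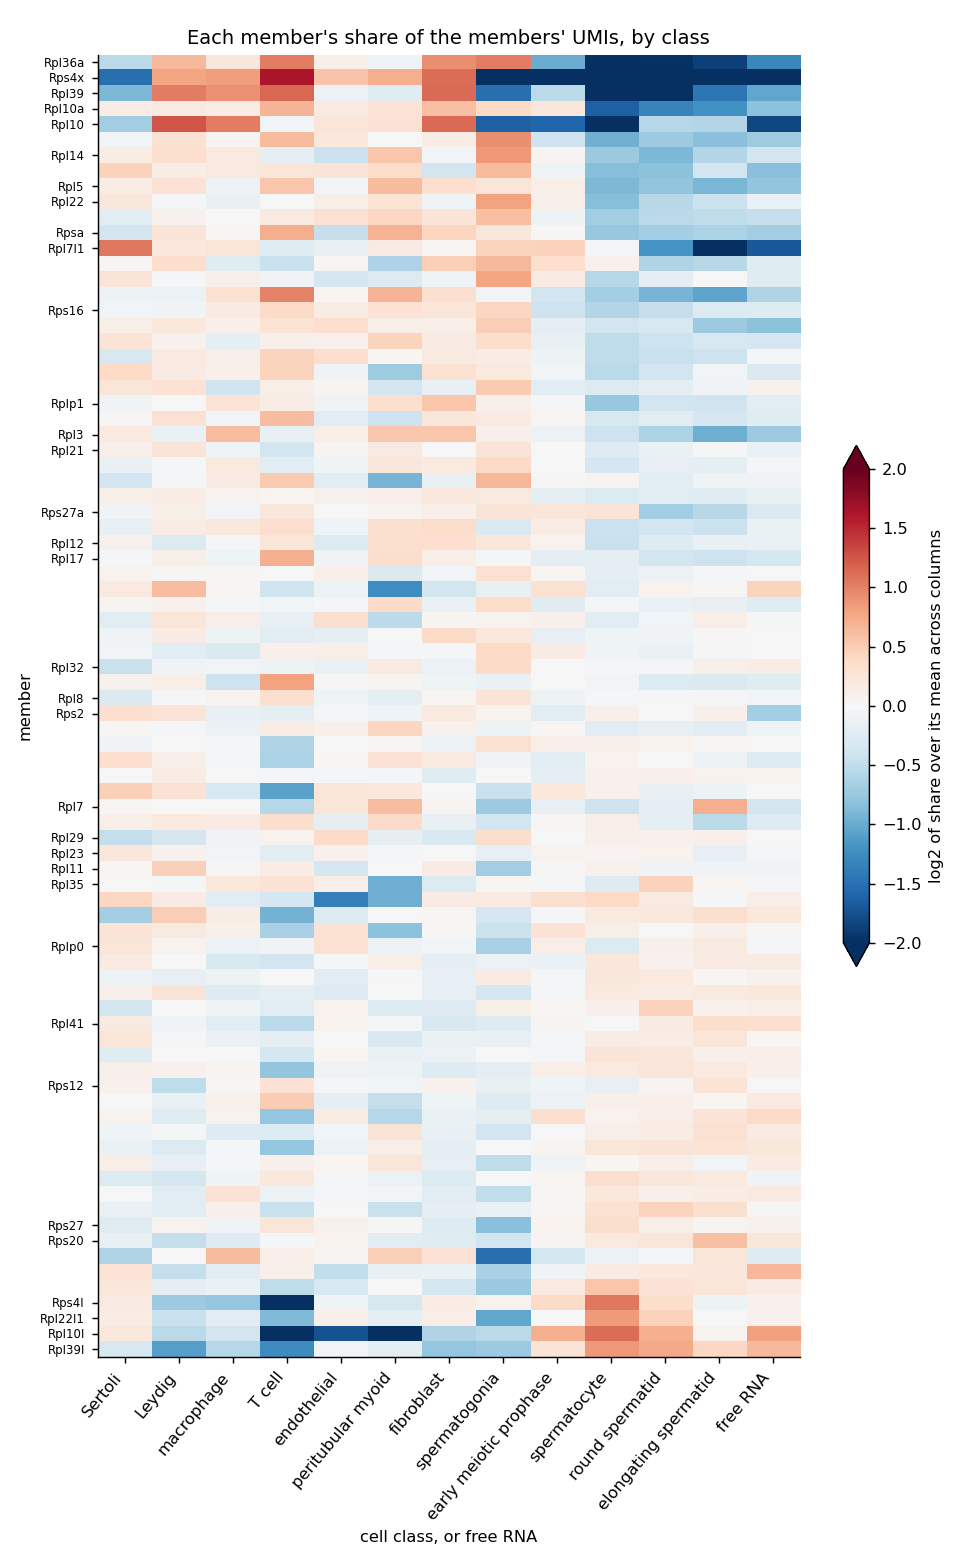
Each of the 84 members with at least 1000 UMIs (rows) as the log2 of its share of the members' UMIs over its mean share across the 12 classes and free RNA (columns), with the symbols of members whose differences are described. X-linked *Rpl36a*, *Rps4x*, *Rpl39* and *Rpl10* are red in Leydig cells and fibroblasts and blue in spermatocytes, and *Rpl39l* and *Rpl10l* show the reverse. *Rpl22l1* and *Rps4l* are red in spermatocytes and blue in Leydig cells, and close to white in fibroblasts.

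Across all members, the median difference from spermatogonia to later spermatocytes lay below that of all genes tested. From spermatogonia to spermatocytes, 11 of 87 members tested were called higher and 19 lower by edgeR, against 34% of all 20425 genes tested called higher and 18.8% lower. The median log2 difference was -0.12 for the members and 0.50 for all genes, a relative median of -0.62 that ran from -0.68 to -0.52 over 10 settings. Beside the genes above, the members called higher included *Rps27*, from 125 to 216 CPM up to 176 to 275 CPM (log2 difference 1.15, adjusted p = 8.93e-05), and the members called lower included *Rpl10a* (-2.14, adjusted p = 5.16e-06) and *Rpl14* (-1.50, adjusted p = 6.16e-06). *Rpl14* stood at 168, 166.5, 329 and 170 CPM in spermatogonia and at 34.1, 36.5, 43.5 and 47.7 CPM in spermatocytes. *Rpl10a*, a large-subunit protein, stood at 41.9 to 105 CPM and at 6.44 to 13.9 CPM. Both were called under all 9 alternatives, and *Rps27* under 8. The split of calls depended on the scaling: 3 higher and 51 lower with library totals alone, and 6 and 25 with relative log expression factors. Without 1 library at a time the counts ran from 4 higher (without Dhx37-/- replicate 2) to 11 and from 13 to 26 lower, with 6 higher without either WT replicate.

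**Figure D4:**
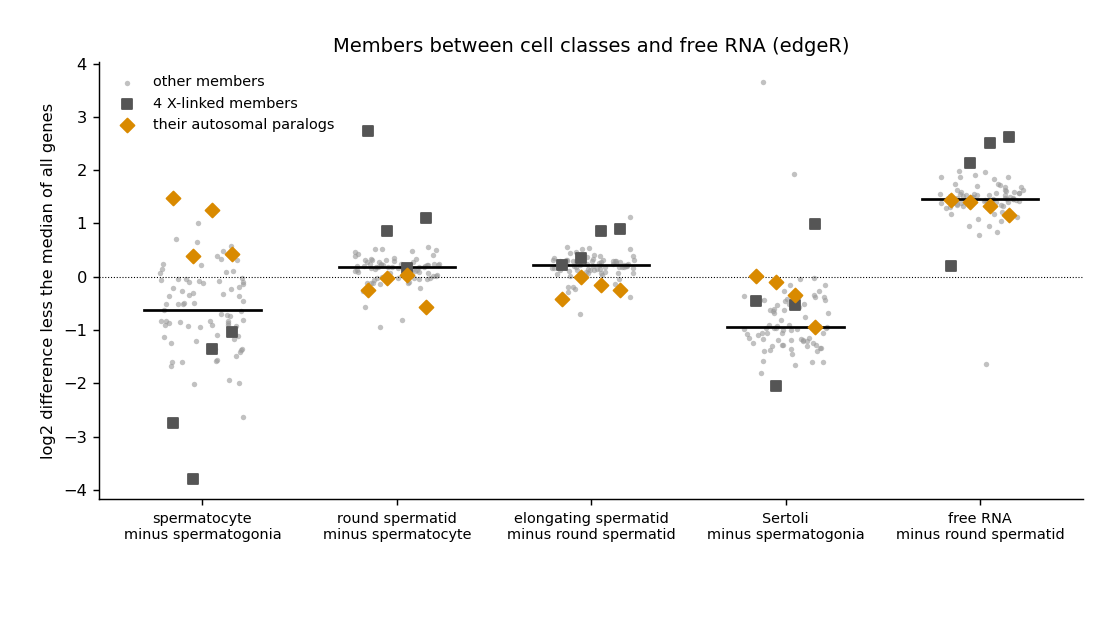
Log2 difference of each tested member less the median of all genes in 5 comparisons between classes and free RNA; grey points are members, dark squares the 4 X-linked members, orange diamonds their 4 autosomal paralogs, and bars the members' medians. Relative to all genes, members lie at -0.62 from spermatogonia to spermatocytes, at -0.94 in Sertoli nuclei and at 1.46 in free RNA.

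From spermatocytes to round spermatids, 6 members were called higher and 4 lower, against a background of 31.5% and 31.4%, and the members' median was 0.19 against 0.01 for all genes. Those called higher were *Rpl10*, *Rpl27a*, *Rpl35*, *Rplp0*, *Rplp1* and *Rps24*, and those called lower *Rpl4*, *Rpl7l1*, *Rps27a* and *Rps4l*. *Rplp0* and *Rplp1* belong to the stalk that binds elongation factors, and *Rps27a* encodes a ribosomal protein fused to ubiquitin. *Rpl35* had a log2 difference of 0.87 (edgeR adjusted p = 0.000990) and *Rps27a* of -0.80 (adjusted p = 0.00155). This split was the least stable: it was 1 and 13 with library totals alone, 67 and 0 with no filter on low counts, and 31 and 1 without WT replicate 1, 17 and 0 without WT replicate 2, 3 and 2 without Dhx37-/- replicate 1, and 14 and 0 without Dhx37-/- replicate 2. The relative median stayed between 0.06 and 0.18.

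From round to elongating spermatids, 1 member was called higher and 11 lower, against 25.5% and 41.3% of all genes, with a members' median of -0.19 and an all-gene median of -0.40. *Rpl7* was the member called higher: it stood at 17.7, 34.4, 51.5 and 42.9 CPM in round and at 34.8, 79.6, 82.1 and 81.9 CPM in elongating spermatids, higher in 4 of 4 libraries (log2 difference 0.72, edgeR adjusted p = 0.00167, called under all 9 alternatives). The paralogs called lower were *Rpl10l* (-0.81, adjusted p = 0.00124), *Rps4l* (-0.65, adjusted p = 0.00381), *Rpl22l1* (-0.69, adjusted p = 0.00301) and *Rpl39l* (-0.56, adjusted p = 0.0100), with *Rpl7l1* (-1.09, adjusted p = 0.00306). These 5 kept their direction under all 9 alternatives and lost the call under 5 or 6 of them. With relative log expression factors 7 members were higher and 0 lower. Without WT replicate 1 the split was 5 and 0, without WT replicate 2 it was 4 and 0, and without Dhx37-/- replicate 2 it was 1 and 1.

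Sertoli nuclei held less ribosomal protein RNA per UMI than spermatogonia, with 2 of 87 members called higher and 34 lower against a background of 22.2% and 10.2%. The members' median was -0.64 and that of all genes 0.30, a relative median of -0.94 (-0.998 to -0.79 over 10 settings). *Rpl32*, a large-subunit protein, stood at 55.7 and 42.8 CPM in WT and 119 and 106 CPM in Dhx37-/- Sertoli nuclei, and at 335 and 291 CPM in WT and 623 and 381 CPM in Dhx37-/- spermatogonia (log2 difference -1.31, edgeR adjusted p = 2.08e-05). It was lower in Sertoli nuclei in 4 of 4 libraries and was called under all 9 alternatives. The 2 members called higher were *Rpl37rt* and *Rpl32l*, both under 1000 UMIs. *Rpl32l* stood at 18.6, 0, 13.9 and 14.6 CPM in Sertoli nuclei, with 57 of its 104 UMIs in all classes, and at 0, 0, 7.16 and 0 CPM in spermatogonia (log2 difference 3.95, adjusted p = 0.000725), and it lost the call without Dhx37-/- replicate 2 (2.50), 1 of 7 alternatives. The count of members lower was 76 with library totals alone, 15 without Dhx37-/- replicate 2, and the count higher was 0 without that library and 1 without either WT replicate.

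Several of the rarest members had many of their class UMIs in 1 class, a count that also follows the size of the class. *Rps3a3* had 27 of its 32 class UMIs in Sertoli nuclei (3.46 to 20.4 CPM). *Rps23rg1* had 21 of 42 there (3.46 to 7.14 CPM). *Rpl6l* had 170 of 185 in round spermatids (3.34 to 8.00 CPM), and *Rps3a2* had 146 of 176 there (2.30 to 8.36 CPM). *Rpl3l*, known from muscle, had 38 of 61 in early meiotic prophase, but its level over the summed libraries was 6.55 CPM there and 6.41 CPM in spermatogonia. Shares of these rare genes are descriptions on few molecules.

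Free RNA was richer in the members than round spermatid nuclei almost without exception. Of 87 members tested 86 were called higher and 1 lower by edgeR, against 45.6% and 34.1% of all genes, with a median log2 difference of 1.83 against 0.37. The relative median of 1.46 ran from 1.34 to 1.76 over 10 settings. *Rpl39* had a log2 difference of 2.87 (adjusted p = 4.58e-19), *Rps4x* of 2.98 (adjusted p = 3.38e-17) and *Rpl14* of 2.33 (adjusted p = 9.67e-18), each called under all 9 alternatives. *Rpl39l* differed by 1.70 (adjusted p = 2.76e-12). *Rpl10* differed least among the members called higher that are named here, at 0.57 (adjusted p = 0.0232), with 10.7, 20.7, 66.4 and 48.6 CPM in free RNA, and it lost the call under 6 of 9 alternatives. The member called lower was *Rpl32l* (-1.28, adjusted p = 0.0450), which lost the call under 4 of 7. Without WT replicate 1, without WT replicate 2 and without Dhx37-/- replicate 1 the count lower was 0.

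Before subtraction of free RNA, the ribosomal protein share was higher in both Dhx37-/- libraries than in both WT libraries in 11 of 12 classes. The same held in free RNA itself. The difference in free RNA was 1.80 percentage points (4.13% ± 0.244 against 2.32% ± 1.30, mean ± SD, n = 2 libraries each), and 0.620 points when free RNA was read at barcode ranks 90000 to 180000 (2.62% ± 0.0467 against 2.00% ± 0.611). Among the 7 somatic classes, the genotypes stood apart, with Dhx37-/- the higher, in 6 before free RNA was subtracted and in 4 after, either by the spermatid estimate or by no more than *Rpl39l* allows. With the spermatid estimate Leydig, macrophage and endothelial nuclei overlapped, and with the *Rpl39l* limit Sertoli and endothelial nuclei did. Macrophages under that limit stood apart with WT the higher, at 0.649% and 0.759% against 0.588% and 0.563% in Dhx37-/-. Free RNA was not subtracted from the shares of germ cell classes. Its estimate ran from 10.6% of UMIs (spermatocytes, WT replicate 2) to 37.4% (early meiotic prophase, WT replicate 1). Whether the genotypes stay apart in spermatogonia, early meiotic prophase and spermatocytes after subtraction was not tested. Round and elongating spermatids have no such estimate. In round spermatids the difference was 0.280 points (0.841% ± 0.00150 against 0.561% ± 0.0996). The difference was 0.390 points in Leydig nuclei and 0.453 in fibroblasts. The exception before subtraction was Sertoli cells, the class targeted for deletion: 0.610% ± 0.106 in Dhx37-/- against 0.464% ± 0.274 in WT, with WT replicate 2 (0.657%) above Dhx37-/- replicate 2 (0.535%), and whether they overlapped after subtraction depended on the estimate for WT replicate 2, as above. The two-sided exact permutation p was 0.667 for Sertoli nuclei and 0.333 for free RNA and every other class, and 0.333 is the smallest that 2 against 2 libraries can give. WT replicate 1 was the lowest library in 11 of 12 classes. Without it the Sertoli difference was -0.0471 points, and without WT replicate 2 it was 0.340 points; in free RNA the difference was 0.886 points without WT replicate 1 and 2.72 points without WT replicate 2, and in round spermatids 0.210 and 0.350 points. Replicates here are separate libraries, and their spread can hold differences of nucleus isolation as well as of animals, which cannot be told apart.

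No member passed an adjusted p of 0.05 between genotypes in any of the 9 edgeR fits (8 classes and free RNA), which tested 78 to 88 members each. The background was as low: 0% of all genes tested were called in Sertoli, Leydig, fibroblast, early meiotic, spermatocyte and elongating spermatid nuclei and in free RNA, 0.189% in macrophages and 0.0103% in round spermatids. At an unadjusted p under 0.05 there were 19 of 82 members in Sertoli nuclei (7.4% of all genes), 28 of 84 in Leydig cells (6.52%), 21 of 81 in macrophages (11%) and 35 of 83 in fibroblasts (8.06%). In germ cells there were 22 of 78 in spermatocytes (15.5% of all genes), 45 of 88 in round spermatids (7.51%) and 35 of 83 in elongating spermatids (8.91%), and in free RNA 32 of 87 (18.4%). The 12 of 83 members in early meiotic prophase lay near the background of 12.8%. DESeq2 called 0 members in the 8 classes and 3 in free RNA, all higher, where it called 0.407% of all genes higher. Members were nonetheless mostly on one side: 79 of 82 were higher in Dhx37-/- in Sertoli nuclei (5488 of 10650 of all genes), 84 of 88 in round spermatids (9003 of 19329) and 84 of 87 in free RNA (11053 of 22332). Without WT replicate 1 they were 43 of 86 in Sertoli nuclei, 80 of 88 in round spermatids and 81 of 89 in free RNA. The median log2 difference of the members was 0.60 in Sertoli nuclei, 0.66 in Leydig cells, 0.37 in macrophages, 0.64 in fibroblasts, 0.50 in early meiotic prophase, 0.51 in spermatocytes, 0.56 in round spermatids, 0.55 in elongating spermatids and 1.00 in free RNA, beside all-gene medians between -0.06 and 0.02. The highest of these medians was that of free RNA.

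The calls depended on which WT library was kept. Without WT replicate 2, so that WT replicate 1 was the only WT library and was assumed to vary like the Dhx37-/- pair, edgeR called 26 of 87 members higher in Dhx37-/- Sertoli nuclei (2.81% of all genes), 42 of 85 in Leydig cells (1.82%), 3 of 82 in macrophages (0.71%) and 60 of 83 in fibroblasts (3.13%). It also called 13 of 79 higher in spermatocytes (5.48% of all genes), 37 of 88 in round spermatids (3.74%), 58 of 86 in elongating spermatids (8.86%) and 83 of 88 in free RNA (16.4%), and 0 in early meiotic prophase (0.194%). No member was called lower. Without WT replicate 1 it called 0 members in Sertoli, Leydig, macrophage and early meiotic nuclei, where 0.00664% to 0.878% of all genes were called higher. It then called 2 of 83 higher in fibroblasts (0.441% of all genes), 5 of 88 in round spermatids (1.09%), 14 of 84 in elongating spermatids (2.76%) and 4 of 89 in free RNA (1.95%), and the 2 of 79 in spermatocytes were at the background of 2.51%. The medians without WT replicate 1 were 0.01 in Sertoli nuclei, 0.25 in Leydig cells, 0.18 in macrophages and 0.19 in fibroblasts. They were 0.53, 0.45, 0.44 and 0.44 in the 4 germ cell classes from early meiotic prophase to elongating spermatids, and 0.53 in free RNA. The all-gene median in Sertoli nuclei was then 0.11, which gave the members a relative median of -0.10 there. In the other classes and free RNA the relative median ran from 0.13 (macrophages) to 0.49 (free RNA). Over the 4 libraries, free RNA was also subtracted from the somatic classes tested, by the spermatid estimate, which may be too high. The members' median was then 0.84 in Sertoli nuclei, 0.62 in Leydig cells, 0.52 in fibroblasts and -0.02 in macrophages, with 0 members called in each.

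**Figure D5:**
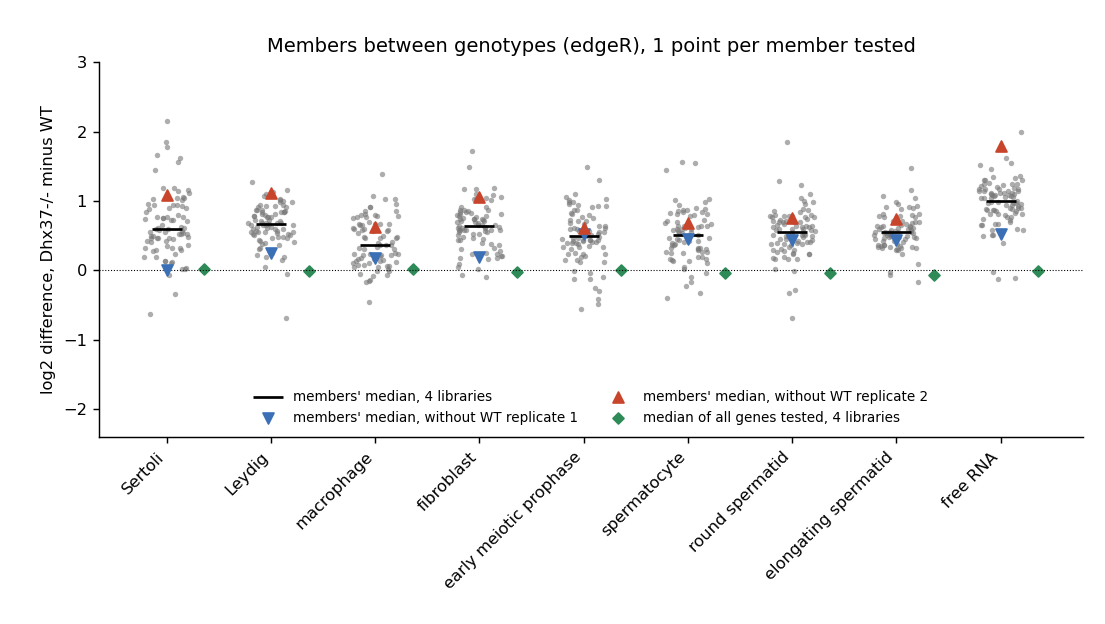
Log2 difference between Dhx37-/- and WT for each tested member (grey points) in 8 classes and free RNA, with the members' median over the 4 libraries (bar), without WT replicate 1 (blue triangle pointing down), without WT replicate 2 (red triangle) and the median of all genes (green diamond). The blue triangles lie at 0.01 in Sertoli nuclei, at 0.44 to 0.53 in the germ cell classes and at 0.53 in free RNA.

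*Rpl29*, a large-subunit protein, had one of the 3 smallest p values among members in Sertoli, fibroblast and round spermatid nuclei. In round spermatids it stood at 26.5 and 36.03 CPM in WT and at 74.7 and 81.5 CPM in Dhx37-/-, without overlap (log2 difference 1.23, edgeR adjusted p = 0.588). In Sertoli nuclei it stood at 9.28 and 21.4 CPM (5 and 3 UMIs) against 44.2 and 37.7 CPM (51 and 80 UMIs), with a log2 difference of 1.66 (adjusted p = 0.511), and in fibroblasts the difference was 1.72 (adjusted p = 0.389). In free RNA *Rpl29* itself was at 81.6 and 183 CPM in WT and at 344 and 334 CPM in Dhx37-/-. *Rpl8* (1.78, adjusted p = 0.497) also had one of the 3 smallest p values in Sertoli nuclei, where it stood at 11.1 and 57.1 CPM in WT and 86.6 and 76.2 CPM in Dhx37-/-. Its log2 difference was 0.62 without WT replicate 1, not called, 2.72 without WT replicate 2, called, 1.95 with no filter on low counts, called, and 8.13 with free RNA subtracted, not called. In free RNA *Rpl10* (2.00), *Rps4x* (1.62) and *Rpl17* (1.55) had the smallest p, each with an adjusted p of 0.154. Elsewhere members with the smallest p were *Rps16* and *Rps12* in Leydig cells (0.99 to 1.27, adjusted p = 0.755), *Rpl12*, *Rpl3* and *Rpsa* in spermatocytes (1.01 to 1.57, adjusted p from 0.164 to 0.207), *Rps20*, *Rps12* and *Rpl17* in early meiotic prophase (0.93 to 1.30, adjusted p = 0.345), *Rpl21* and *Rps12* in elongating spermatids (0.89 to 0.99, adjusted p = 0.525) and *Rps2*, *Rpl39l* and *Rplp0* in macrophages (0.92 to 1.03, adjusted p from 0.181 to 0.225). In these classes, too, the difference was positive for each.

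*Rpl5* and *Rpl11*, which with 5S ribosomal RNA can bind Mdm2, the ubiquitin ligase of p53, did not pass between genotypes in any class. In Sertoli nuclei *Rpl11* stood at 51.9 and 57.1 CPM in WT and at 109 and 77.7 CPM in Dhx37-/- (log2 difference 0.71, SE 0.34, edgeR adjusted p = 0.695). *Rpl5* stood there at 20.4 and 35.7 CPM in WT and at 51.1 and 47.5 CPM in Dhx37-/- (log2 difference 0.95, SE 0.40, adjusted p = 0.642). Neither gene's genotypes overlapped, on 5 to 28 UMIs per WT library. *Rpl23*, another large-subunit protein known to bind Mdm2, had a log2 difference of 0.14 in Sertoli nuclei (SE 0.44, adjusted p = 0.974). In free RNA the differences were 1.06 for *Rpl11*, 1.17 for *Rpl5* and 0.98 for *Rpl23*, also not called.

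The paralog *Rpl10l* ran against the other members between genotypes: its log2 difference was negative in all 8 fits that tested it, from -0.69 in Leydig nuclei to -0.07 in elongating spermatids, none called (edgeR adjusted p from 0.659 to 0.983). In free RNA it stood at 122 and 123 CPM in WT and at 102 and 108 CPM in Dhx37-/-, while *Rpl10* stood at 10.7 and 20.7 CPM and at 66.4 and 48.6 CPM. Of the 84 members with at least 1000 UMIs, 83 had their lowest free RNA level in WT replicate 1, and *Rpl10l* was the other.

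Other genes of translation were counted beside the members. Of 19 partners with related regulation (elongation and initiation factors, *Fau*, *Rack1*, *Tpt1*, *Npm1* and others) 17 were higher in free RNA than in round spermatids and 1 lower, with a median of 1.37, and from spermatogonia to spermatocytes 4 were higher and 2 lower, with a median of 0.18. That balance did not hold: it was 1 and 11 with library totals alone (median -0.61), 2 and 5 with relative log expression factors (-0.10), 2 and 5 with no filter (-0.19), 2 and 3 without Dhx37-/- replicate 2 (-0.12), 3 and 5 without WT replicate 1 (-0.16), 2 and 5 without WT replicate 2 (0.020) and 2 and 1 without Dhx37-/- replicate 1 (0.17). Of 76 mitochondrial ribosomal protein genes tested, 71 were higher and 2 lower in free RNA (median 1.69). From spermatocytes to round spermatids 5 were higher and 23 lower (median -0.33), against 31.5% and 31.4% of all genes. These counts did not hold, with 4 higher and 48 lower (median -0.78) with library totals alone, 12 and 7 (median 0.25) with no filter, and 8 (without Dhx37-/- replicate 2) to 15 (without Dhx37-/- replicate 1) lower without any 1 of the 4 libraries. In Sertoli nuclei against spermatogonia 8 were higher and 3 lower (median 0.13), against 22.2% and 10.2% of all genes. They were 1 and 25 with library totals alone (median -0.77), 6 and 3 with relative log expression factors (-0.10), 4 and 1 without Dhx37-/- replicate 1 and 3 and 1 without Dhx37-/- replicate 2. Their difference from the cytosolic members was not tested. Between genotypes edgeR called 0 of the partners and 0 of the mitochondrial genes in all 9 fits, with medians from 0.20 to 0.76 and from 0.14 to 0.78. Here too the calls depended on the WT library kept. Without WT replicate 2 it called up to 13 of 19 partners and 64 of 77 mitochondrial genes higher in Dhx37-/-, both in free RNA (16.4% of all genes), and 12 of 19 partners in elongating spermatids (8.86%). Without WT replicate 1 it called 6 of 19 partners higher in elongating spermatids (2.76%) and 1 lower in round spermatids, and the partners' median in Sertoli nuclei was -0.10.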

How the data were processed

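Nuclei from testes of 8-week-old males (2 WT and 2 Dhx37-/- libraries) were sequenced with 10x Genomics 3′ chemistry. The authors deposited raw UMI counts per gene and barcode, with no filter on barcodes. Cell Ranger 7.2.0 wrote them per the file headers, and the submitters' processing notes name GRCm38 (mm10) where the methods name another build, so no coordinate of a count was used. Intron counting is not given in the sources used here.

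As in the methods, nuclei were kept that had between 500 and 5000 genes, a minimum of 500 UMIs and no more than 25% mitochondrial UMIs, and doublets were not removed. A nucleus entered 1 of 12 classes when at least 3 markers and 3 marker UMIs exceeded its library's free RNA (Poisson p of at most 0.001), with every other class at least 10 times less likely. These limits were set after seeing marker purity, not ribosomal protein levels. The members and lists were chosen with earlier results of these data known. UMIs were summed per library and class and tested with edgeR 4.0.16 (R 4.3.3; quasi-likelihood, TMM, filterByExpr, Benjamini-Hochberg over all genes tested, adjusted p under 0.05), 1 fit per class between genotypes where every library held at least 20 nuclei, and 1 fit over 6 kinds of sum with the library as a block between classes. The methods' Wilcoxon test takes nuclei as replicates and was replaced. DESeq2 1.42.0, RLE factors, library totals, no filter, a stricter gate of 6 marker UMIs, a minimum of 1000 UMIs, subtraction of free RNA (read from spermatid transcripts) and leaving out each library were alternatives. Free RNA was also read at ranks 90000 to 180000. Scripts ran in Python 3.11.15 and were tested on simulated data. There the genotype fits called 12.2% of genes raised 2-fold in Sertoli nuclei, 12% in round spermatids and 18% in free RNA. Of genes raised 4-fold they called 80%, 90% and 98%. The simulated libraries of a class shared the same profile and a spread set in advance, not taken from these data. The percentages can therefore be too high for the real libraries. In free RNA *Rpl10*, with a log2 difference of 2.00, was not called (edgeR adjusted p = 0.154). Most 2-fold changes were missed even in the simulation, so 0 members called between genotypes does not show that members are unchanged.

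Named were paralogs beside their parents, members tied to Mdm2 or named by the study, the 5 most counted members in classes and in free RNA, and in each fit the members with the smallest p. Some genes this rule names are not reported here. *Rpl26l1* is not among the genes listed. Members lower in the smaller count of a fit, and members led by 1 class, were named after their values were seen.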

Additional observations from a re-analysis of the deposited data

How the results depend on the processing

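Between genotypes the count of members called by edgeR, 0 in each of 9 fits, changed with the libraries kept more than with any other choice, except in early meiotic prophase. Without 1 library at a time it ran from 0 to 42 in Leydig cells, 0 to 26 in Sertoli nuclei, 0 to 58 in elongating spermatids, 0 to 60 in fibroblasts, 0 to 83 in free RNA, 0 to 3 in macrophages, 0 to 37 in round spermatids and 0 to 13 in spermatocytes, and stayed at 0 in early meiotic prophase. Same-numbered libraries correlated at -0.417 to 0.00840 in their deviations from the group means, so the numbers did not pair them. With a replicate block it was 4 in fibroblasts (0.264% of all genes called higher) and changed no other count. With the pairs crossed (WT 1 with Dhx37-/- 2), an alternative chosen after seeing the data, it was 4 in Leydig cells (0.432% of all genes higher), 7 of 83 in early meiotic prophase (4.02%), 2 in elongating spermatids (0.27%), 27 in free RNA (4.52%), 3 in round spermatids (0.295%) and 1 of 78 in spermatocytes, where 2.34% of all genes were called higher. With no filter on low counts it was 1 in Sertoli nuclei (0.0422% of all genes higher), 8 in fibroblasts (0.191%), 5 in free RNA (0.675%) and 2 in round spermatids (0.116%), and DESeq2 gave 3 in free RNA. The cause was not tested. The free RNA difference in share was 0.620 points at ranks 90000 to 180000. The Sertoli difference in share ran from -0.0471 to 0.340 points without 1 library at a time, and it reversed to -0.0471 without WT replicate 1.

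Between classes the members' median relative to all genes, added after seeing the data, kept its sign in all 5 comparisons under 10 settings, the main one included. A change of scaling moves members and all genes nearly alike, so library totals and RLE factors could hardly change this median. The counts did not hold. For spermatocytes against spermatogonia the counts higher and lower were 3 and 51 with library totals, 5 higher with no filter, 6 higher with RLE factors, and 4 to 11 and 13 to 26 without 1 library at a time. For round spermatids against spermatocytes they were 1 and 13 with library totals, 67 and 0 with no filter, 22 and 1 with the stricter gate, and 3 to 31 and 0 to 2 without 1 library. For elongating against round spermatids they were 2 and 2 with library totals, 7 and 0 both with RLE factors and with the stricter gate, and 1 to 5 and 0 to 8 without 1 library. For Sertoli nuclei against spermatogonia the count higher was 1 with library totals and RLE factors and 0 with the stricter gate, the count lower was 76 with library totals, and they ran from 0 to 2 and 15 to 40 without 1 library. For free RNA against round spermatids the count lower was 0 with library totals, 2 with no filter, 0 with the stricter gate and 0 to 1 without 1 library.

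Of 30 named differences called, 14 kept the call under every alternative tried and 16 lost it under at least 1. Of 29 named and not called, 20 were called without WT replicate 2 and 10 without WT replicate 1. The log2 difference of *Rps4l* from spermatocytes to round spermatids was 0.028 with no filter, and that of *Rps4x* from spermatogonia to spermatocytes ran from -1.97 to 0.96 without 1 library at a time, 0.96 being without Dhx37-/- replicate 1; each of these reversed the sign. That of *Rpl23* between genotypes in Sertoli nuclei ran from -0.49 (without WT replicate 1) to 0.84 (without WT replicate 2) and was -0.16 without Dhx37-/- replicate 1. The mean share of early meiotic nuclei without the named paralogs was 1.08%, and *Rpl3l* in spermatogonia stood at 3.33 CPM with the stricter gate. Depth limits the small sums, with 5 T cell, 6 spermatogonial, 9 peritubular myoid and 32 Sertoli nuclei in WT replicate 2.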

Other observations

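Nuclei that passed the filters and entered no class held ribosomal protein shares of 0.670%, 0.789%, 1.31% and 1.16% of UMIs in the order WT 1, WT 2, Dhx37-/- 1, Dhx37-/- 2, within the range of the classes of the same library. Farther down the barcode ranks, from 90000 to 180000, free RNA held 1.57%, 2.43%, 2.66% and 2.59% in that order. WT replicate 1 was the lowest library in both.

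The pseudogene rows left out by the rule (322 rows marked -ps, of which 241 had a UMI in a class) held 14047 UMIs in the classes, beside 526667 in the 93 members. Their share of all UMIs was 0.0217% to 0.0299% in round spermatids and 0.0217% to 0.0324% in spermatocytes, above the 0.00889% to 0.0133% of Leydig nuclei and the 0.0102% to 0.0113% of fibroblasts without overlap. In free RNA it was 0.0141% to 0.0205%, below round spermatid nuclei in every library, where the members lay above them. WT replicate 1 was the lowest library in round spermatids, spermatocytes and free RNA. A pseudogene row can also hold reads of the spliced parent gene, and this was not tested.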
